A study of Mus musculus with 4 samples.

Results

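The contractile genes of myoepithelial cells were followed in the chromatin of mouse salivary gland organoids (mSGOs). The set held 10 genes, fixed by name, of 21440 protein-coding genes that could be placed with a strand: Acta2, Actg2, Myh11, Cnn1, Tagln, Mylk, Myl9, Lmod1, Tpm2 and Oxtr. In ATAC-seq, the Tn5 transposase cuts DNA where chromatin is accessible, and a peak of cuts is read as an open region. The material came from 4 samples of non-irradiated organoids grown from the submandibular gland of C57BL/6 mice, with ages of 12 weeks and 3 months each given for 1 sample of passage 1 and 1 of passage 2. All were cultured in Matrigel in a medium with EGF, FGF2, insulin, dexamethasone, Wnt3a- and R-spondin1-conditioned medium and Y27632. The study describes a consensus of peaks over all its organoid samples, but the size it gives matches neither the lines nor the distinct regions of the deposited list, so which samples this list covers is not known. The list describes 32011 distinct regions, each with an IDR score, which rates how reproducible a peak is, and a fold of signal over the local background. The list holds no values by sample, so passages and ages could not be compared, depth per sample is unknown, and no test was made. Intervals beside shares cover counting error only.

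Myoepithelial cells are epithelial cells that wrap the acini and small ducts of salivary, mammary and other glands and squeeze them when they contract. Like smooth muscle cells they build filaments of smooth muscle actin (Acta2, Actg2) and smooth muscle myosin heavy chain (Myh11), which calcium signals set in motion through a kinase (Mylk) that phosphorylates the regulatory light chain (Myl9). Tropomyosin (Tpm2), calponin (Cnn1), transgelin (Tagln) and leiomodin (Lmod1) bind and shape the actin filaments, and Oxtr encodes the receptor for oxytocin, the hormone that makes mammary myoepithelium contract. In smooth muscle, serum response factor (SRF) and its partner myocardin switch on many of these genes through the CArG box, a short A- and T-rich element close to the start of the gene. Close relatives of these proteins, such as beta-actin or non-muscle myosin, serve the cytoskeleton of nearly every cell.

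RefSeq promoter windows of GRCm38.p6, from 250 bases before to 50 bases after a start, were matched by symbol for 7 of the 10 genes: Acta2, Cnn1, Mylk, Myl9, Lmod1, Tpm2 and Oxtr. Those of 4 contractile genes are shown first, because they carry the letters that SRF is known to read or lack them, and because none of them overlapped an open region. Capitals mark a CArG box, either exact or with 1 base of its core that is not A or T. The windows are Acta2 on the minus strand at chr19:34255324-34255623, Myl9 on the plus strand at chr2:156775214-156775513, Cnn1 on the plus strand at chr9:22099003-22099302 and Tpm2 on the minus strand at chr4:43523505-43523804.
Acta2: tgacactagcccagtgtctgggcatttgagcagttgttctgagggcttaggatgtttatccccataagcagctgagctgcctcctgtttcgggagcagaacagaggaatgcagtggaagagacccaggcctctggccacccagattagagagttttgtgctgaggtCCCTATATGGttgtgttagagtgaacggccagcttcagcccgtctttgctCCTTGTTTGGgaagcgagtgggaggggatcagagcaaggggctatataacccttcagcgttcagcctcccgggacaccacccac
Myl9: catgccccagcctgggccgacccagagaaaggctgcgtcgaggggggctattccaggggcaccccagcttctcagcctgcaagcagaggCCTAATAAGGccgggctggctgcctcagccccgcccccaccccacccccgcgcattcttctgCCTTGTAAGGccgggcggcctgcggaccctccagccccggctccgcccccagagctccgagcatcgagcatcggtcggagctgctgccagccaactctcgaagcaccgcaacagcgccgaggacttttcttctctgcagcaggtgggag
Cnn1: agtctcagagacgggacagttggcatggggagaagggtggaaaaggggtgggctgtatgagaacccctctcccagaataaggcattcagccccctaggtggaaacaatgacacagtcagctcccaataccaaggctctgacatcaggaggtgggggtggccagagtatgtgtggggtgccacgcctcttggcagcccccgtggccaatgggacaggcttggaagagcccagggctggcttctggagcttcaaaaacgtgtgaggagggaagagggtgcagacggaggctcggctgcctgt
Tpm2: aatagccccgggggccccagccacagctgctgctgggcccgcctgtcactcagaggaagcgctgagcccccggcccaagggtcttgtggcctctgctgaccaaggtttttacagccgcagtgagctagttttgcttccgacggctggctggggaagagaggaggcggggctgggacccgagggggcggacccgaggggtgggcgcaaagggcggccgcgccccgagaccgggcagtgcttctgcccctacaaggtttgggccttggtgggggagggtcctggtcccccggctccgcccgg

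The same window of a broadly expressed relative of each is shown for contrast. They are Actg1, on the minus strand at chr11:120348446-120348745, Myl6, on the minus strand at chr10:128493837-128494136, Cnn3, on the plus strand at chr3:121426291-121426590, and Tpm1, on the minus strand at chr9:67049164-67049463. The windows shown of Myl6, Cnn3 and Tpm1 overlapped an open region, and that of Actg1 did not. A second window of Myl6, not shown, held an exact CArG box and overlapped no region. Among the other light chains, the window of Myl12a overlapped a region and that of Myl12b did not.
Actg1: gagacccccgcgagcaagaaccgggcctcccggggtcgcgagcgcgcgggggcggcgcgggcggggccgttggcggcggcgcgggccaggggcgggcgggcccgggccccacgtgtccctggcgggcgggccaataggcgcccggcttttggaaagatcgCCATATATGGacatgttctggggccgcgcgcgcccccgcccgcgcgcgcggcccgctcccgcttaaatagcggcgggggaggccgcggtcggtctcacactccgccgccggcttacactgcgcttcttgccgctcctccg
Myl6: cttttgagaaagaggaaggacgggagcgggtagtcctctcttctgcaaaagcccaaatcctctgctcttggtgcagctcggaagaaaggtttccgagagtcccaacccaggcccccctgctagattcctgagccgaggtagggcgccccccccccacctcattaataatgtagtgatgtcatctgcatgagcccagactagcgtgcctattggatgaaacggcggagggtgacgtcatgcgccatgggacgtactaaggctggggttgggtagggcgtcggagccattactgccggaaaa
Cnn3: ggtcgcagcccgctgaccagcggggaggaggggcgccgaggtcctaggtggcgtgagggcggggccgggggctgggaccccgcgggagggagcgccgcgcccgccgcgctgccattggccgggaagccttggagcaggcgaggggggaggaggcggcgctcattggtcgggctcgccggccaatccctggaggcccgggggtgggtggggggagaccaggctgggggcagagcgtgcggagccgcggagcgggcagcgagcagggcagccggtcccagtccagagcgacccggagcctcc
Tpm1: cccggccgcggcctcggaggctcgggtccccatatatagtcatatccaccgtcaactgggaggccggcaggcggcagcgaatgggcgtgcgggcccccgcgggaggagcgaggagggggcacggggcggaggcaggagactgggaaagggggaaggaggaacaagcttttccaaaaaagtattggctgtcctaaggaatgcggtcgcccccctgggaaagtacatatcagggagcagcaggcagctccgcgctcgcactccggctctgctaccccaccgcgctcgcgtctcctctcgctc

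At the 5' end, 1 of the 10 contractile genes had an open region, against 13 of 20 broadly expressed cytoskeletal genes. A gene was counted when the midpoint of a distinct region lay within 1 kb of its outermost 5' end, which was the case for 38.3% of all protein-coding genes (8206 of 21440). The share was 10.0% for the contractile genes (95% Wilson interval 1.79 to 40.4) and 65.0% for the broadly expressed ones (43.3 to 81.9). The lists were chosen with earlier results of these data known, so the shares are a description and were not tested. In bulk samples, a small number of myoepithelial cells and closed contractile genes within such cells cannot be told apart. The only contractile gene counted was Oxtr, the receptor, and none of the genes for filament proteins or for the kinase was.

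The region of Oxtr lay at chr6:112490798-112491158, with its midpoint 57 bp inside the outermost 5' end and its strongest summit 9 bp inside it. Its fold over the local background was 4.82 and its IDR score 574, against a median fold of 7.11 over all regions and a lowest score of 540 in the list. It was thus a weak region by both values. The start that the promoter table gives for Oxtr lies further into the gene, and the region's midpoint was more than 1 kb from it. No other region lay in Oxtr or within 50 kb of it.

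Tpm2, which encodes the beta-tropomyosin of muscle, was the gene just outside the limit. A region at chr4:43522264-43522696 had its midpoint 1103 bp inside the 5' end of Tpm2 and its strongest summit 1100 bp inside it. This region was strong, with a fold of 10.2 and an IDR score of 1000. It was the strongest region inside any of the 10 genes, and its edge reached into the window of 1 kb. A count by overlap thus gave 2 of 10 genes, against 39.1% of all protein-coding genes.

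The other 8 genes had their nearest region between 3.0 and 43.1 kb from the 5' end. Cnn1, which encodes calponin, was the closest of them, with a region 3004 bp upstream at chr9:22096038-22096396 (fold 5.66, IDR score 654). Lmod1 had its nearest region 11.1 kb away and Myh11 11.65 kb away. For Tagln the distance was 19.24 kb and for Mylk 19.59 kb. The pair of smooth muscle actins stood further off, Actg2 with 26.63 kb and Acta2 with 29.53 kb, and Myl9, the regulatory light chain, stood furthest with 43.15 kb. No region lay within 10 kb of the 5' end for 7 of the 10 genes, against 47.2% of all protein-coding genes and 0 of the 20 broadly expressed ones. The median distance was 15.4 kb for the contractile genes, 0.213 kb for the broadly expressed genes and 7.62 kb for all protein-coding genes.

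**Figure D1:**
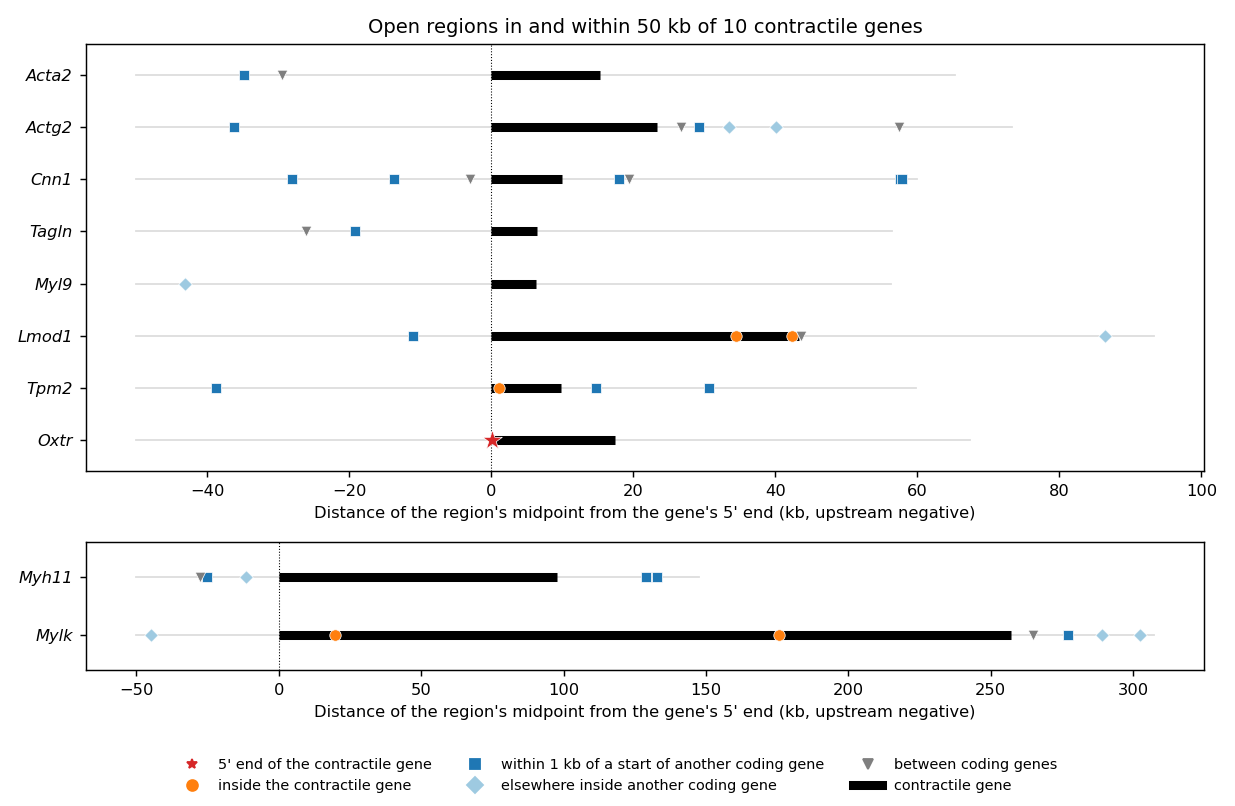
Each line is 1 of the 10 contractile genes, drawn from its 5' end at 0 with the gene as a black bar and 50 kb on either side as a grey line, and each symbol is the midpoint of a distinct region, placed by its distance from the 5' end in kb (upstream negative). Only Oxtr has a region at its 5' end (star, 57 bp), and 5 further regions lie inside Mylk, Lmod1 and Tpm2 (circles). Squares mark the 17 of the 40 regions at outermost or listed starts of neighbouring coding genes. In the whole list, 8178 of 32011 regions lie within 1 kb of an outermost coding 5' end.

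Inside the genes, 4 of 10 held at least 1 region, close to the 39.5% of all protein-coding genes. Together the 10 genes held 6 regions over 487 kb, or 0.123 per 10 kb of gene, against 0.161 for all protein-coding genes and 0.515 for the broadly expressed ones. Mylk, the longest of the set, held 2 regions, at chr16:34764544-34765030 (fold 4.86) and chr16:34920878-34921177 (fold 4.34). They lay 19.6 and 175.8 kb past its outermost 5' end. Mylk is known to make several proteins from separate starts, a long and a short kinase and telokin, and the region nearest to the start in the promoter table was still further away than the one nearest to the outermost 5' end. Lmod1 held 2 regions in the last stretch of the gene, 34.4 and 42.4 kb from the 5' end, and a further region lay 0.3 kb past its 3' end (fold 3.86). Acta2, Actg2, Myh11, Cnn1, Tagln and Myl9 held no region at all. The 6 regions inside the genes had a median fold of 5.48, from 4.34 to 10.2, and 16.7% of them had the highest IDR score of 1000, against 45.1% of all regions.

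Within 50 kb, every one of the 10 genes had a region, as did 78.5% of all protein-coding genes. The number per gene ran from 1 to 7, with a median of 4.5, against 3 for all protein-coding genes and 6 for the broadly expressed ones. Cnn1 and Mylk had 7 regions each, more than 87.3% of protein-coding genes. Actg2 followed with 6, Myh11 and Lmod1 with 5, and Tpm2 with 4. Acta2 and Tagln had 2 each, and Myl9 and Oxtr 1 each, which put Myl9 and Oxtr above only 21.5% of genes. A long gene has a longer stretch in which regions are counted, and Mylk spans 257238 bp against 6250 bp for Myl9. Starts of other protein-coding genes, within 1 kb, accounted for 17 of the 40 regions. A further 8 lay elsewhere inside another protein-coding gene, 9 between protein-coding genes, and 6 inside a contractile gene. With outermost 5' ends alone, 24 of the 40 lay over 1 kb from that of any coding gene. In the whole list this held for 23833 of 32011 regions, and the difference was not tested.

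**Figure D2:**
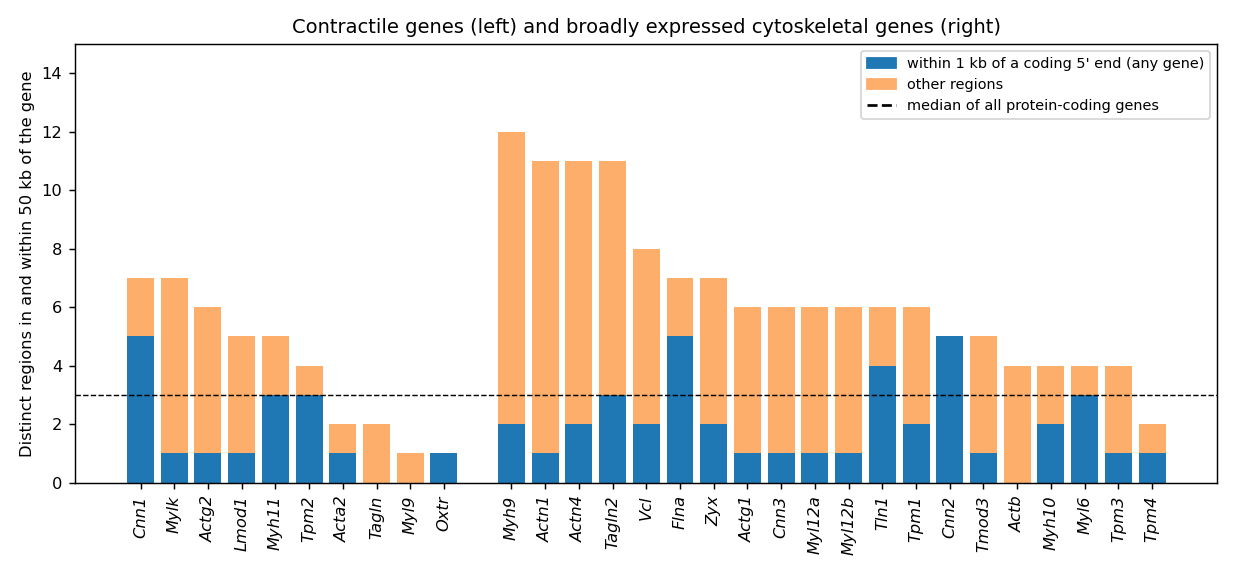
Bars give the number of distinct regions in and within 50 kb of each of the 10 contractile genes (left) and 20 broadly expressed cytoskeletal genes (right), split into regions within 1 kb of an outermost 5' end of any coding gene (blue) and other regions (orange). The dashed line is the median of 3 over all protein-coding genes, and Acta2, Tagln, Myl9 and Oxtr and, among the broadly expressed genes, Tpm4 lie below it.

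The neighbours of the contractile genes had open starts more often, by count, than those genes. Of 27 other protein-coding genes with their 5' end within 50 kb, 15 (55.6%) had a region there, against 40.4% of neighbours counted in the same way around every protein-coding gene. Tln1 and Creb3, neighbours of Tpm2, share 1 region, so the 15 starts are not 15 separate regions. Of the 10 contractile genes, 9 had a neighbour, against 80.7% of all protein-coding genes. At least 1 neighbour with a region at its start was found for 7 of the 10, against 50.1% of all protein-coding genes. These counts were not tested. The 3 strongest regions by fold around the contractile genes all lay at such starts. The first, at chr16:14317060-14317612 with a fold of 15.1, was 25.1 kb upstream of Myh11 at the start of Cep20, a centrosomal protein gene. The second, at chr6:83506766-83507137 with a fold of 11.4, lay 5.96 kb past the 3' end of Actg2 at the start of Dguok, which encodes mitochondrial deoxyguanosine kinase. The third, at chr9:22070709-22071546 with a fold of 11.3, lay 28.1 kb upstream of Cnn1 at the start of Zfp653. Regions at starts of neighbouring coding genes had a median fold of 8.45, and the other 23 regions around or in the contractile genes had a median of 6.29. Over the whole list the medians lay in the same order, 7.90 for regions at protein-coding 5' ends and 6.87 for the others.

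Acta2 had 2 regions, neither inside the gene. Its 2 regions were 29.5 and 34.8 kb upstream, at chr19:34284934-34285294 (fold 4.74) and chr19:34290063-34290761 (fold 7.53), and the second lay at the start of Fas, the death receptor gene. Tagln had its 2 regions at chr9:45955192-45955398 (fold 5.46), at a start of Sidt2, and at chr9:45961860-45962380 (fold 8.32), between coding genes and 26.1 kb upstream. The single region of Myl9, at chr2:156731992-156732527 (fold 8.78), lay inside Dlgap4. Around Lmod1, the strongest region was 11.1 kb upstream at the start of Timm17a, a mitochondrial import gene, with a fold of 10.3. Near Tpm2, a region at chr4:43562001-43562717 (fold 7.33) lay at the starts of both Tln1, which encodes talin, and Creb3. Tln1 is also 1 of the broadly expressed genes, so this region entered both counts. The only neighbour of Oxtr, Cav3, which encodes the caveolin of muscle, had its nearest region 31473 bp away.

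Within gene families, the smooth muscle member and its broadly expressed relatives could be set side by side. Among myosin heavy chains, Myh11 had its nearest region 11651 bp from the 5' end, while the non-muscle genes Myh9 and Myh10 had one with its midpoint 226 and 128 bp upstream of it, with folds of 8.59 and 12.2. Among light chains, Myl6 had a region 19 bp from the 5' end (fold 6.34) and Myl12a one 162 bp from it (fold 7.68), whereas the nearest to Myl12b was 3129 bp away and the nearest to Myl9 43149 bp. Among calponins, Cnn3 had a region at 101 bp (fold 6.37), while the nearest to Cnn2, at 3524 bp, was no closer than that of Cnn1. Tagln2 had a region at 203 bp (fold 5.7) and Tagln its nearest at 19237 bp. Tmod3, a tropomodulin, had one at 125 bp (fold 6.03) and its relative Lmod1 its nearest at 11103 bp.

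Tropomyosins and actins did not split in this way. Tpm1 had a region 393 bp from its outermost 5' end and 66 bp from the start in the promoter table, with a fold of 4.9. Tpm4, however, had its nearest region 1398 bp inside the gene (fold 6.93), about as far as that of Tpm2, and Tpm3 had one 4881 bp from the outermost 5' end. Tpm3 has a further listed start, at which a region lay with its midpoint 1 bp away (fold 9.67). Neither of the cytoplasmic actin genes was counted. Actb, whose product every cell needs, had its nearest region 1295 bp inside its outermost 5' end (fold 4.63). Actb has no listed start, so whether that region lay at a start inside the gene could not be checked. Actg1 had its nearest region 5334 bp away, also with its listed start included. A broadly expressed gene such as Actg1 can therefore lack a region at its 5' end in this list. Of the genes for proteins that link actin to adhesions and to other filaments, Vcl (fold 11.5), Zyx (fold 7.24), Actn1 (fold 7.45), Actn4 (fold 5.96) and Tln1 were counted. Flna was not, although a region lay 24 bp from its listed start. With listed starts included, 15 of 20 broadly expressed genes, 41.8% of all protein-coding genes and 1 of 10 contractile genes had a region. Listed starts exist for 7 of the 10 contractile genes and 18 of the 20 broadly expressed ones. The others, Actg2, Myh11 and Tagln among them, could not change under this setting.

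**Figure D3:**
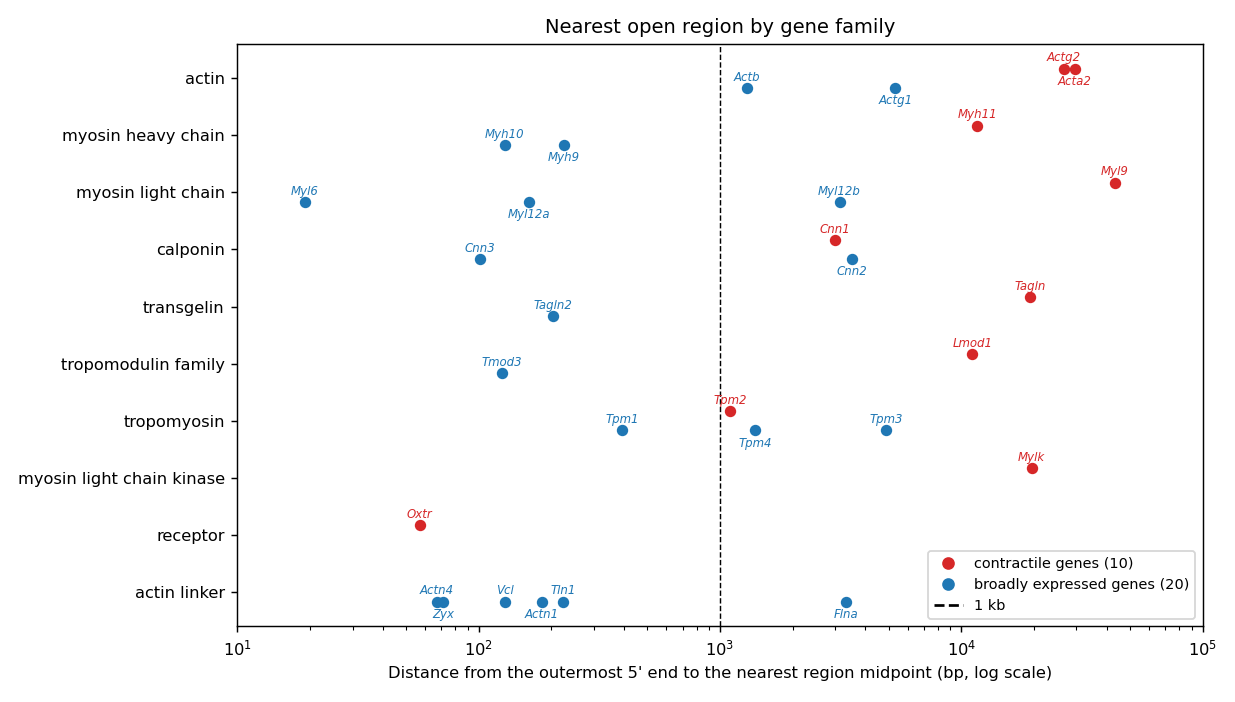
Each point is a gene, placed by the distance in bp (log scale) from its outermost 5' end to the nearest region midpoint and grouped by protein family, with contractile genes in red and broadly expressed genes in blue. Oxtr at 57 bp is the only red point left of the dashed line at 1 kb, where 13 of 20 blue points lie, and Actb and Actg1 lie to its right.

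Relatives of the contractile genes that belong to striated muscle or other restricted tissues were a further point of comparison. A region at the 5' end was found for 1 of 14 (7.14%), and the median distance to the nearest region was 22.4 kb. The skeletal and cardiac actins Acta1 and Actc1 had their nearest regions at 35279 and 122485 bp. The exception was Myh1, a fast skeletal myosin gene, with a region at chr11:67199407-67199668 (fold 7.52, IDR score 1000) 565 bp upstream. The count at 5' ends was thus 1 of 14 here and 1 of 10 for the contractile genes, and the difference was not tested.

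Genes that control contraction or the contractile genes were counted at the 5' end in 8 of 11 cases (72.7%). Mrtfa and Mrtfb, cofactors of SRF that respond to actin, had regions 100 and 333 bp from the 5' end, with folds of 6.8 and 6.59. They held 7 and 6 regions within the gene, or 0.392 and 0.372 per 10 kb. Srf itself had its nearest region 1999 bp inside the outermost 5' end, which was 106 bp from its listed start (fold 7.81). Myocd, the muscle-restricted cofactor myocardin, held no region, and the nearest to its 5' end was 141156 bp away. Rhoa (fold 8.51), Rock1 (fold 9.47), Ppp1r12a (fold 10.2) and Ppp1cb (fold 9.58), which tune the phosphorylation of myosin light chain, were counted, while Rock2 had its nearest region at 1297 bp. Cald1 and Smtn, which encode actin-binding proteins abundant in smooth muscle, had regions 39 and 40 bp from the 5' end, with folds of 9.36 and 7.54. Inside Cald1 lay 6 regions, or 0.339 per 10 kb. Over the 11 genes the figure was 0.288, against 0.515 for the broadly expressed genes and 0.161 for all protein-coding genes. Cald1 and Smtn are named with smooth muscle but are not among the 10 genes, so genes for smooth muscle proteins were not uniformly without a region. Which form of either protein these regions serve cannot be told from the list.

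The labels call the material salivary gland cells from organoids, and markers of epithelium had regions in the list. At the 5' end, 3 of 5 epithelial markers (Epcam, Cdh1 and Krt8, not Krt18 and Krt7) and 4 of 5 markers of basal and myoepithelial epithelium (Krt5, Krt14, Krt17 and Itgb4, not Trp63) had a region. The study itself names Krt17 with luminal duct cells and only Krt14 and Krt5 for basal duct cells. The folds of the basal regions, 2.95 for Krt5, 5.43 for Krt14, 4.67 for Krt17 and 4.61 for Itgb4, were below the median of 7.11 over all regions, although the Krt14 region had the top IDR score of 1000. Of the epithelial regions, the 2 of Epcam (4.24 for the nearest and 6.64 for the strongest) and that of Krt8 (5.96) were below that median too. That of Cdh1 (7.77) was above it. Trp63, which encodes the p63 factor of basal epithelium, held 7 regions inside its 208326 bp, or 0.336 per 10 kb. It has no listed start, so it was counted at its outermost 5' end alone and starts inside it could not be checked. Krt18 had its nearest region 11290 bp from the 5' end. Trp63, Lgals7, Csrp1 and Sparc, by which the study names myoepithelial-like cells in organoids kept longer in culture than those it used for ATAC-seq, were counted in 0 of 4 cases. For duct markers the count was 1 of 3 (Sox9) and for acinar markers 0 of 4. Markers of other cells that use the same contractile genes, vascular smooth muscle cells and pericytes, were counted in 0 of 8 cases. Those of fibroblasts were counted in 0 of 6, of endothelium in 0 of 6 and of immune cells in 1 of 6 (Cd68). Regions inside genes were not particular to basal markers, as Pecam1 of endothelium held 0.491 per 10 kb and Notch3 of pericytes 0.434. By list, they numbered 0.735 per 10 kb for epithelial and 0.311 for basal markers. Endothelial markers had 0.137, acinar ones 0.116, and vascular smooth muscle and pericyte ones 0.1.

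**Figure D4:**
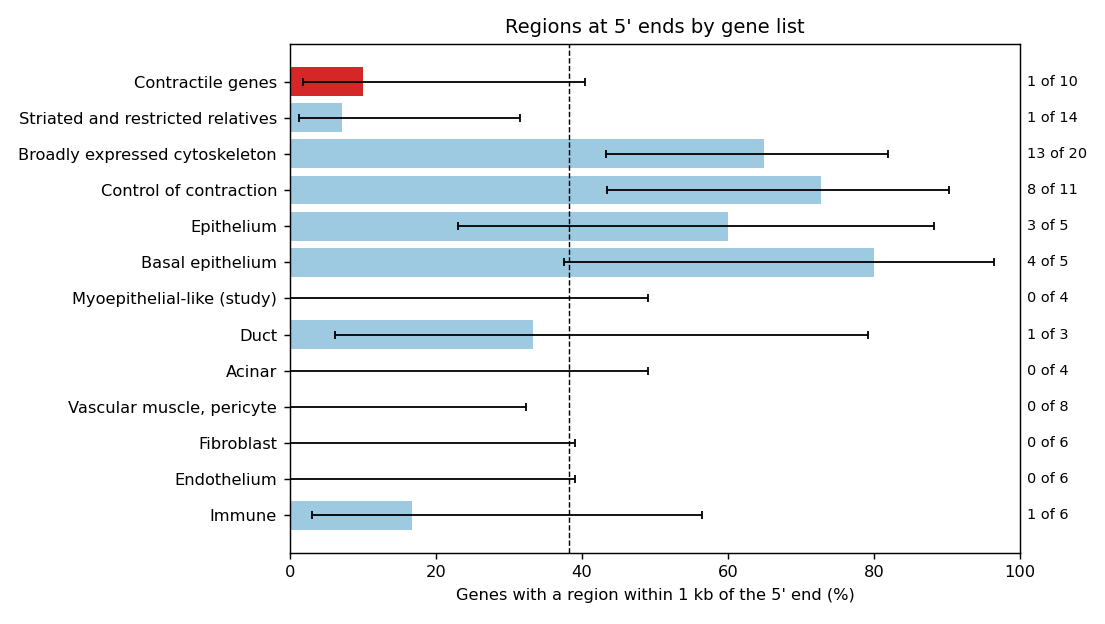
Bars give the percentage of genes in each list with a region midpoint within 1 kb of the outermost 5' end, with 95% Wilson intervals for counting error and the counts at the right, and the dashed line marks the 38.3% of all protein-coding genes. Contractile genes (1 of 10, red) lie below that line near striated and restricted relatives (1 of 14), and the broadly expressed cytoskeleton (13 of 20) lies above it.

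Promoter windows, of which examples were printed above, were also compared by base composition. None of the 7 windows of contractile genes overlapped a region, against 14 of 20 windows (70.0%) of 18 broadly expressed genes and 36.7% of 21263 windows of protein-coding genes. The number of CpG dinucleotides per window of 300 bases was 4 for Mylk, 6 for Acta2 and for Cnn1, 7 for Lmod1 and 20 for Myl9, Tpm2 and Oxtr. The median was 7 for the contractile genes, 21.5 for the broadly expressed windows and 13 for all. Over all protein-coding genes, windows with few CpGs seldom overlapped a region. The share was 3.66% with 0 to 4 CpGs, 15.4% with 5 to 9, 43.6% with 10 to 14 and 66.5% with 20 to 24. Mylk, Acta2, Cnn1 and Lmod1 thus fell in classes in which few windows overlapped a region, and Myl9, Tpm2 and Oxtr in a class in which most did.

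**Figure D5:**
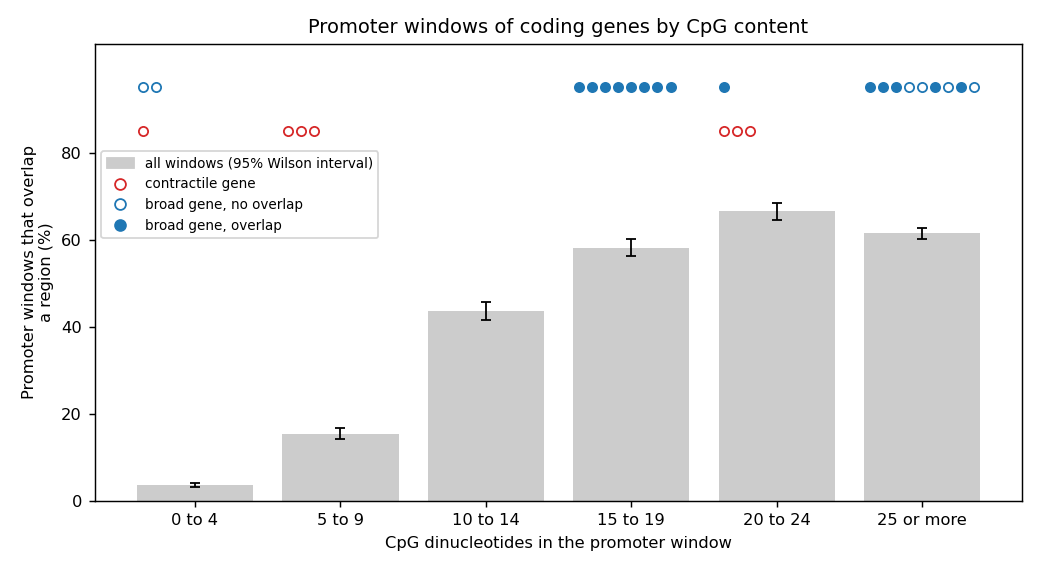
Grey bars give the percentage of 300-base promoter windows of protein-coding genes that overlap a region, by the number of CpG dinucleotides, with 95% Wilson intervals. Circles above place the windows of 7 contractile genes (red, none overlapping a region) and 20 windows of broadly expressed genes (blue, filled where a region overlaps) in their classes, without reference to the vertical axis.

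Letters of transcription factor motifs were searched on both strands of the windows, and positions are counted from the start, with the base before it at -1 and the leftmost base of the match given. An exact CArG box was found in Myl9 at -161 and in no other of the 7 contractile windows, and in 1.52% of all 21263 windows. Boxes with 1 departure in the core were found in Acta2 at -84 and -34 and in Myl9 at -99, and in 8.19% of all windows. Exact boxes were found in 4 of 20 windows of broadly expressed genes, those of Actg1 at -90, Cnn2 at -56, Vcl at -227 and a second start of Myl6 at -50. Of these, only the window of Vcl overlapped a region. Across all genes, 31.8% of windows with an exact box and 36.7% of those without overlapped a region, so the presence of these letters did not go with more open windows in the list. The core of the TEAD motif, GGAATG, was found in Acta2 at -146, Mylk at -158 and Lmod1 at -130, and in 13.6% of all windows. The AP-1 motif TGANTCA was found in Mylk alone of the 7, at -64, and in 6.99% of all windows. E-boxes, CANNTG, were found in 6 of the 7 and in 69.0% of all windows. The exact letters TATAAA of a TATA box were found in 0 of the 7 and in 12.6%. The window of Acta2 holds tatataa, a close match that this search did not count. A match is a description of the letters and not a bound site.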

How the data were processed

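Peaks were called by the authors from 75 bp paired-end reads with the pipeline of ENCODE for ATAC-seq. Its version and filters are not given in the sources used here. The submitters' processing notes name HOMER and the build GRCm39. The deposited list holds, in 69545 lines, an IDR score, for each summit a fold (ratio) over background, its position and significance as −log10 of a q-value. The p-value column was not used. Lines of 1 region were joined, keeping the summit of lowest q-value, which left 32011 regions. Of 21440 protein-coding 5' ends in the RefSeq table of GRCm38.p6, 38.3% had a region within 1 kb, against 3.66% to 3.97% of ends shifted by 10 to 100 kb, so the list was read as GRCm38. Strand came from the RefSeq promoter table of GRCm38.p6 (17492 genes) or, by name, from GENCODE mouse release 39 (3948 genes, Actg2, Myh11 and Tagln among them), and genes without one were left out.

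Genes were described at the outermost 5' end (1 kb), inside the gene and within 50 kb. Members and lists were chosen with earlier results of these data known. Named genes were the 10 members, 20 broadly expressed, 14 striated or restricted and 11 control genes, marker lists, neighbours within 50 kb and the 3 strongest regions. A further control gene of the design is not reported here. The counting was tested on simulated data. Alternatives changed the distance, the point that places a region, the regions used and the starts. Python 3.11.15, numpy 2.4.6, pandas 2.3.3 and scipy 1.17.1 were used. Depth per sample is unknown.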

Additional observations from a re-analysis of the deposited data

How the results depend on the processing

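No paired analysis was possible because the 1 list holds no values by sample, and leaving out samples was not run for the same reason. Depth is unknown, so a gene without a region is a gene without a region in this list. Actg1, a broadly expressed actin gene, had none within 1 kb of its outermost 5' end or its listed start.

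The number of contractile genes with a region at the 5' end, 1 of 10, rose to 2 within 2 kb, by any overlap with the window and with either end of the gene counted, and to 3 within 5 kb, a distance chosen after seeing the data. It fell to 0 among the regions with the lowest q-values and among those with an IDR score of 1000. Under these alternatives the broadly expressed genes stayed between 9 and 19 of 20, and all protein-coding genes fell furthest to 5153 with an IDR score of 1000. Regions inside contractile genes, 6 in all, numbered 1 in both stricter sets and 14 by lines, and those inside broadly expressed genes, 39, numbered 18 in the q-value set, 13 in the score set and 98 by lines. Regions within 50 kb of contractile genes, 40, numbered 22 within 25 kb, 68 within 100 kb, 21 and 19 in the stricter sets, and 24 without those at outermost coding 5' ends. For broadly expressed genes, 131 became 212 within 100 kb and 68 and 61 in the stricter sets. Wider distances and lines raise, and stricter sets lower, these numbers by construction. The other 26 of 47 alternatives stayed within 1.5 times. Listed starts were added after seeing the data.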
